A study of Homo sapiens with 18 samples.

Results

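The comparison described here is that of PATU-8902 cells kept for 24 h in 2.5 µM DCLK1-IN-1 with PATU-8902 cells kept for 24 h in the vehicle DMSO. PATU-8902 is an established line of human pancreatic ductal adenocarcinoma, and DCLK1-IN-1 is a small molecule that inhibits DCLK1, a kinase of the doublecortin family. The members were chosen by their labels and are 6 of the 18 libraries of the series, 3 treated and 3 DMSO, which the series record calls biological triplicates. The other libraries are PATU-8902 after 6 h of 2.5 µM DCLK1-IN-1 and the same 3 groups of a second pancreatic cancer line, PATU-8988T. Both lines were grown in the same serum-containing medium, every treated library received the same dose, and no DMSO group was taken at 6 h.

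Polyadenylated RNA was measured as FPKM, fragments scaled to transcript length and between libraries. Of 26249 genes, the 11477 that averaged 1 FPKM or more over the 18 libraries were tested. Changes are differences of log2(FPKM + 1), treated minus DMSO, after each library was shifted to a common median, and they understate the change of genes with low values. A gene passed the threshold at an adjusted p below 0.05 (limma, 2-sided, Benjamini-Hochberg over all 11477 genes). In bulk libraries a change in the share of cells that express a gene and a change in RNA per cell cannot be told apart.

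Cells sense cholesterol in the endoplasmic reticulum. When it is low, SCAP carries the precursors of the SREBP transcription factors to the Golgi, where a pair of proteases frees their active parts. When it is high, INSIG proteins hold SCAP back. SREBP-2, the product of SREBF2, acts mainly on genes of cholesterol synthesis and uptake, and SREBP-1 mainly on genes of fatty acid synthesis. SREBPs bind DNA weakly alone and commonly act with neighbouring factors such as NF-Y, which binds the CCAAT box.

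The targeted gene was expressed. DCLK1 measured 20.9, 23.3 and 31.2 FPKM in the treated libraries, against 25.6, 24.1 and 21.5 FPKM in the DMSO libraries. The groups overlapped, and the log2 change was -0.00 ± 0.06 (SE, adjusted p = 1.00). As deposited, without the median shift, the value was 0.06. DCLK1-IN-1 acts on the kinase protein, so this transcript does not check the treatment. The paralogues DCLK2 and DCLK3 and the doublecortin gene DCX were below the filter, and their highest value in the 6 libraries was 0.114 FPKM.

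All 9 markers of pancreatic cancer epithelium, among them KRT8, KRT18, KRT19 and EPCAM, were tested. Their summed level was 3255 to 4850 FPKM in treated and 3480 to 4959 FPKM in DMSO libraries, and 0 of the 9 passed the threshold. The 7 acinar and islet markers summed to at most 0.771 FPKM in treated and 0.786 FPKM in DMSO libraries. The 6 fibroblast markers summed to at most 1.40 FPKM in treated and 1.23 FPKM in DMSO libraries. None of these 13 reached 1 FPKM in any of the 6 libraries. Of the 7 leukocyte and endothelial markers only CD68, which encodes a lysosomal membrane protein, was tested, and it did not pass. The summed level of the 7 was 13.8 to 18.2 FPKM in treated and 11.6 to 14.01 FPKM in DMSO libraries, and their part in the results was not tested.

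The median FPKM of the tested genes was 12.7, 12.3 and 17.4 in treated replicates 1 to 3, against 14.9, 12.7 and 12.5 in DMSO replicates 1 to 3. Treated replicate 3 and DMSO replicate 1 stood above the others of their group, and the mean log2 medians of the groups differed by 0.06 (exact permutation p = 0.9, where the smallest possible p is 0.1). The mean log2 deviation of the spike-in controls lay between -0.06 and 0.02 in the 6 libraries. Within groups, Pearson's r between libraries across genes was 0.972 to 0.981 in treated and 0.967 to 0.973 in DMSO cells.

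In treated cells, 51 of 11477 genes passed the threshold (0.444%), of which 48 were higher (0.418%) and 3 lower (0.0261%). Enzymes of cholesterol synthesis made up 18 of the 48 higher genes. Of 23 tested sterol synthesis enzymes, 18 rose and 0 fell, with a median log2 change of 1.07 against -0.02 over all genes tested. Another 17 of the 48 belonged to lists of SREBP control, cholesterol transport, fatty acid and acyl-CoA metabolism, NADPH supply or glycolysis, and 13 belonged to no list. The log2 changes of the 48 ran from 0.32 to 1.69, with a median of 0.83, and 16 were at least 1. All 48 had their 3 treated libraries above their 3 DMSO libraries after the median shift, as did 6.11% of the genes tested.

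The scaling of the libraries bears on these counts. With the values as deposited, 13 genes passed, 12 higher and 1 lower, of which 11 are among the 51. By list, 7 of the 23 sterol synthesis enzymes, 1 of 10 SREBP control genes and 2 of 16 transport genes rose as deposited, and 0 of 14 fatty acid, 0 of 10 acyl-CoA and lipin, 0 of 9 NADPH and 0 of 18 glycolysis genes did. Among the 13 were HMGCS1, IDI1, SQLE, CYP51A1, MSMO1, HSD17B7, SC5D, INSIG1, STARD4 and FAM25A. Each of the 6 compared libraries was also left out in turn, and 37 of the 51 genes passed in all 6 of these reduced fits.

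**Figure D1:**
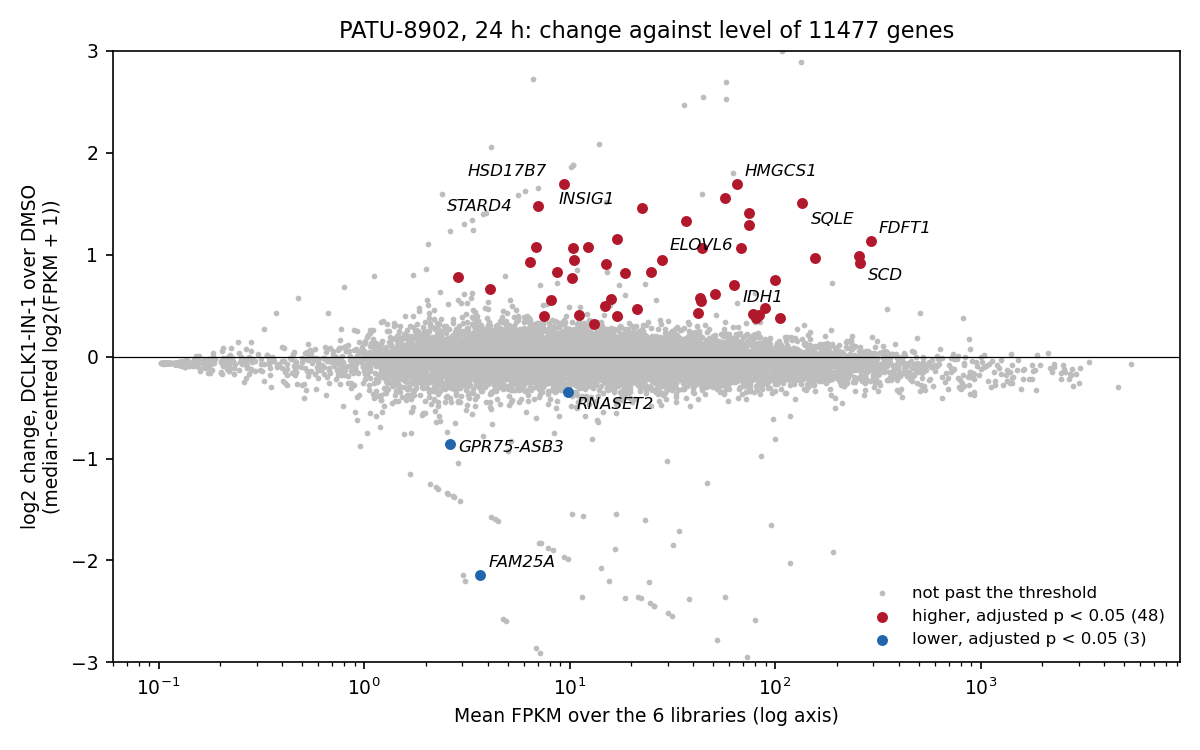
The horizontal axis is the mean FPKM of each tested gene over the 6 libraries (log axis) and the vertical axis is its log2 change in treated over DMSO cells. The 48 higher genes (red) and 3 lower genes (blue) that passed the threshold lie at 0.32 to 1.69 and -0.35 to -2.15, and 23 genes beyond -3 or 3 are not drawn.

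Size alone did not set these genes apart. A log2 change of 1 or more in either direction was seen in 121 genes, of which 104 did not pass. The names of 95 of those 104 begin with MIR, SNOR, SCARNA, RNU or SNAR, names of small RNAs that selection of polyadenylated RNA captures poorly. Their standard errors were large, with a median of 1.44 over the 104 genes, against 0.09 over the 48 higher genes and 0.11 over all genes tested.

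The enzymes that lead from acetyl-CoA to farnesyl diphosphate were the first group of the pathway. Of its 9 tested members, 6 rose and 0 fell, with a median log2 change of 0.96. HMGCS1, which makes HMG-CoA, measured 90.2, 89.5 and 123 FPKM in treated libraries, against 32.5, 27.3 and 27.2 FPKM in DMSO libraries. The lowest treated library was well above the highest DMSO library, and the change was 1.69 ± 0.07 (SE, adjusted p = 4.39e-10). IDI1, the isopentenyl diphosphate isomerase, measured 96.3, 94.5 and 142 FPKM in treated cells, against 42.1, 36.5 and 38.0 FPKM in DMSO cells. The groups did not overlap, and IDI1 rose by 1.40 ± 0.09 (adjusted p = 1.04e-07).

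MVK, the mevalonate kinase, was among the less abundant members. Its values were 13.4, 12.4 and 18.3 FPKM in treated cells, against 6.96, 5.57 and 5.86 FPKM in DMSO cells, a change of 1.06 ± 0.11 (adjusted p = 2.24e-05). ACAT2, the cytosolic acetoacetyl-CoA thiolase that starts the pathway, measured 184, 182 and 268 FPKM in treated cells, against 127, 90.7 and 91.5 FPKM in DMSO cells. DMSO replicate 1 was the highest of its group and still below every treated library, and ACAT2 rose by 0.96 ± 0.10. MVD, the mevalonate diphosphate decarboxylase, measured 19.2, 15.3 and 26.0 FPKM in treated cells, against 12.8, 7.57 and 9.04 FPKM in DMSO cells. It rose by 0.91 ± 0.16 (adjusted p = 0.0101) but passed in 3 of the 6 reduced fits.

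A pair of named enzymes of this group did not pass. FDPS, the farnesyl diphosphate synthase, averaged 99.2 ± 24.1 FPKM in treated and 60.7 ± 12.2 FPKM in DMSO cells (SD, n = 3 each), with a change of 0.63 ± 0.14 (adjusted p = 0.0742) and no overlap of the groups. PMVK, the phosphomevalonate kinase, averaged 9.95 ± 2.51 FPKM in treated and 10.9 ± 3.46 FPKM in DMSO cells, and its groups overlapped. PMVK, with a change of -0.16 ± 0.14, was the only tested member of this group below 0.

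All 4 enzymes from farnesyl diphosphate to the demethylation of lanosterol rose, with a median log2 change of 1.21. SQLE, the squalene epoxidase, had the smallest adjusted p of the comparison. It measured 178, 184 and 250.3 FPKM in treated libraries, against 74.5, 67.3 and 61.4 FPKM in DMSO libraries, a change of 1.50 ± 0.05 (SE, adjusted p = 9.38e-11). CYP51A1, the lanosterol demethylase, measured 93.7, 96.4 and 135 FPKM in treated cells, against 44.0, 41.9 and 37.6 FPKM in DMSO cells. Its groups did not overlap, and it rose by 1.29 ± 0.07.

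FDFT1, the squalene synthase, was the most abundant of the 4 per transcript length. It measured 351, 356 and 512 FPKM in treated cells, against 219.8, 157 and 153 FPKM in DMSO cells, and rose by 1.13 ± 0.11 (adjusted p = 1.63e-05). LSS, the lanosterol synthase, was the least abundant, with 9.58, 8.05 and 11.8 FPKM in treated cells, against 5.32, 3.28 and 3.24 FPKM in DMSO cells. It rose by 1.08 ± 0.11 (adjusted p = 1.98e-05). Neither gene's groups overlapped.

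**Figure D2:**
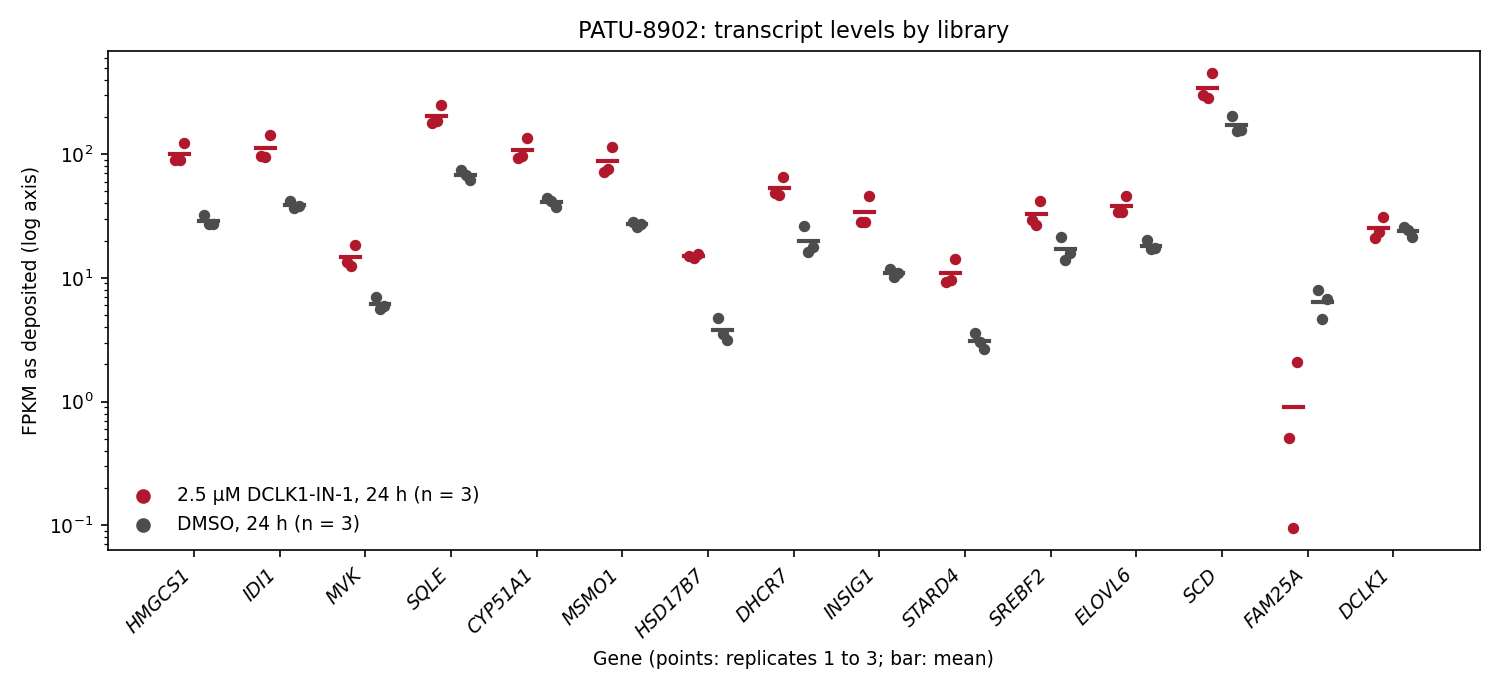
FPKM as deposited (log axis) of 15 genes, with a point for each of the 3 libraries in 2.5 µM DCLK1-IN-1 (red, left) and in DMSO (grey, right) and a bar at the mean. The 13 lipid genes on the left lie higher in all treated libraries (HMGCS1 at 89.5 or more against 32.5 or less), FAM25A lies lower, and the DCLK1 points overlap.

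The steps from lanosterol to cholesterol held 10 tested genes, of which 8 rose and 0 fell, with a median log2 change of 0.93. HSD17B7, a 3-ketosteroid reductase, measured 14.9, 14.3 and 15.6 FPKM in treated libraries, against 4.75, 3.48 and 3.12 FPKM in DMSO libraries. Its treated values lay within a narrow range far above the DMSO values, and the change was 1.69 ± 0.12 (SE, adjusted p = 2.51e-07). Pseudogene copies of HSD17B7 exist, and reads from near-identical copies may not be separable. MSMO1, the methylsterol monooxygenase, measured 71.9, 75.5 and 115 FPKM in treated cells, against 28.4, 25.9 and 27.2 FPKM in DMSO cells, and rose by 1.56 ± 0.15.

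DHCR7, the reductase that makes cholesterol from its last precursor, measured 48.4, 46.4 and 65.8 FPKM in treated cells, against 26.1, 16.1 and 17.8 FPKM in DMSO cells. The groups did not overlap, and DHCR7 rose by 1.33 ± 0.13 (adjusted p = 2.49e-05). SC5D, the lathosterol desaturase, measured 22.2, 21.8 and 28.7 FPKM in treated cells, against 9.60, 10.1 and 9.63 FPKM in DMSO cells, and rose by 1.16 ± 0.13. C14orf1 (ERG28), which in yeast holds the demethylating enzymes together, measured 57.5, 54.5 and 70.0 FPKM in treated cells, against 30.8, 26.8 and 23.8 FPKM in DMSO cells. It rose by 1.07 ± 0.07 (adjusted p = 2.68e-07).

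Smaller rises completed this group. TM7SF2, a sterol C14 reductase, rose by 0.78 ± 0.13 and NSDHL, a C4 decarboxylating dehydrogenase, by 0.57 ± 0.10. NSDHL passed in 2 of 6 reduced fits. TM7SF2 did not pass in limma in the fit of the 9 PATU-8902 libraries (adjusted p = 0.158) or in that of the 6 compared libraries (adjusted p = 0.174). The isomerase gene EBP averaged 78.7 ± 23.0 FPKM in treated and 51.4 ± 10.3 FPKM in DMSO cells (SD, n = 3 each), with a change of 0.52 ± 0.13 that did not pass (adjusted p = 0.205). LBR, a nuclear envelope protein that also has C14 reductase activity, was at -0.02 ± 0.07 with overlapping groups, and as deposited at 0.04.

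Within these 3 steps 20 of the 23 genes had every treated library above every DMSO library, on the deposited values and after the median shift alike. Over all genes tested, 5.84% did so as deposited and 6.11% after the shift. In PATU-8902 the pathway's changes did not follow its order, since HMGCS1 near the start, SQLE in the middle and HSD17B7 late in it were all at 1.50 or more.

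**Figure D3:**
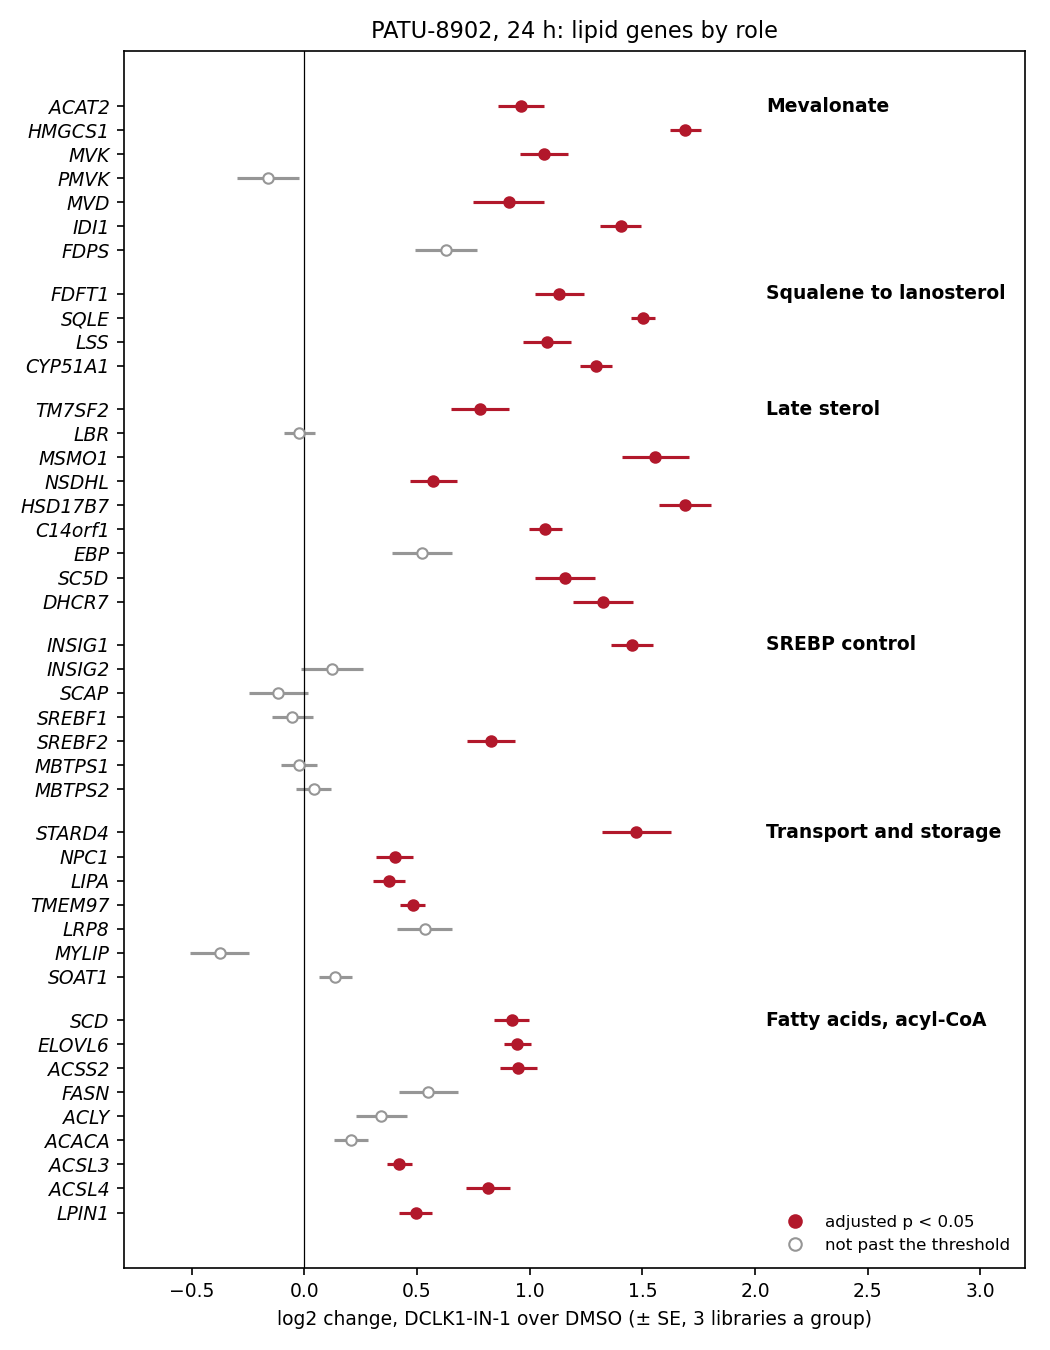
Log2 change in treated over DMSO cells (horizontal axis, ± SE of the limma model, 3 libraries a group) of named lipid genes arranged by role from top to bottom. Filled red points passed the threshold, and open grey points, such as PMVK at -0.16 and LBR at -0.02, did not.

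The promoters of these genes are shown for a view of the sequence before their start sites. RefSeq windows of 250 bases before to 50 bases after a start (build GRCh38.p14) were matched for 39 of the 48 higher genes. SREBF2 is shown because its window holds the sterol regulatory element searched. HMGCS1 is shown because it had the largest rise of the 48 higher genes, and MSMO1 and MVK because CCAAT recurs in them. Each line gives the 250 bases before the start, 5′ to 3′ on the gene's strand. Capitals mark TCACNCCAC and CCAAT, and ATTGG in capitals is CCAAT on the other strand. The windows are SREBF2 at chr22:41832855-41833104 (+), HMGCS1 at chr5:43313413-43313662 (-), MSMO1 at chr4:165327419-165327668 (+) and MVK at chr12:109573544-109573793 (+). RefSeq gives HMGCS1 another start, whose window at chr5:43313182-43313431 (-) holds 0 CCAAT and is not printed.
SREBF2: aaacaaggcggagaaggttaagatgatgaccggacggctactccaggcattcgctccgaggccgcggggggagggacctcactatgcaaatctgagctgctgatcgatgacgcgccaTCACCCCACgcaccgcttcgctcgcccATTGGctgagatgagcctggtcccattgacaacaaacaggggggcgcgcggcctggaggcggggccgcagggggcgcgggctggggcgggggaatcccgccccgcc
HMGCS1: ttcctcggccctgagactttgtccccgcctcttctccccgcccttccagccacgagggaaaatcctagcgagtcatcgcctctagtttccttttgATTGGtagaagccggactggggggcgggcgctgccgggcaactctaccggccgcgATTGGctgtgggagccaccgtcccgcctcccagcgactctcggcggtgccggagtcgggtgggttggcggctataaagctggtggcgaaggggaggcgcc
MSMO1: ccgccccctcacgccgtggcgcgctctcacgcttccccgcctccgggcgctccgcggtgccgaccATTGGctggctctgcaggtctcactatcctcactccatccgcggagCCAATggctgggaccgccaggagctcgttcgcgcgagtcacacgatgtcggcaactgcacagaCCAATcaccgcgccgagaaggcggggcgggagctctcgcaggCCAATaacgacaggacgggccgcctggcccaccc
MVK: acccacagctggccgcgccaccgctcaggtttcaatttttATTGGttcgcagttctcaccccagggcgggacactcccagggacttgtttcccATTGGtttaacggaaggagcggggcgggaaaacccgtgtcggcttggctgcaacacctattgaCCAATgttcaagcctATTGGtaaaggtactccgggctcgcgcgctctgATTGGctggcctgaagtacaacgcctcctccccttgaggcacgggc

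CCAAT on either strand was found in the windows of 30 of the 39 higher genes (76.9%), against 44.1% of the 9179 tested genes with a window and 39.7% of the 27305 RefSeq genes in the table. Among the sterol synthesis enzymes that rose, 12 of 13 with a window held it (92.3%), and CYP51A1 did not. TCACNCCAC, a form of the sterol regulatory element, was found in 3 of the 39 (7.69%), against 1.41% of tested and 1.39% of all RefSeq genes. These 3 were SREBF2, ALDOC and TDRKH, and in TDRKH the match was not within the 250 bases before the start. Of the 13 sterol synthesis enzymes with a window, 0 held TCACNCCAC. CACGTG, the E-box, was found in 5 of the 39 (12.8%), against 12.9% of tested genes. The 3 motifs were searched on both strands, and a match is a description of these letters, not of binding. Genes with several start sites had several windows, 1.33 a gene among the higher and 1.46 among all tested genes. The MVK window shares 211 bases with that of MMAB, which is read from the opposite strand, so these genes are not separate examples.

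Of 10 tested genes that control SREBPs, 2 rose and 0 fell, with a median log2 change of 0.01. INSIG1, which retains SCAP in the endoplasmic reticulum, measured 28.1, 28.3 and 45.6 FPKM in treated libraries, against 11.7, 10.2 and 10.9 FPKM in DMSO libraries. The groups were far apart, and INSIG1 rose by 1.46 ± 0.09 (SE, adjusted p = 1.04e-07). SREBF2, which encodes SREBP-2, measured 29.4, 26.7 and 41.4 FPKM in treated cells, against 21.4, 13.96 and 15.8 FPKM in DMSO cells. It rose by 0.83 ± 0.11 (adjusted p = 3.89e-04), and as deposited it stood at 0.89 without passing (adjusted p = 1.00).

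The partners of this pair did not pass. SREBF1, which encodes SREBP-1, averaged 4.97 ± 0.997 FPKM in treated and 4.93 ± 0.949 FPKM in DMSO cells (SD, n = 3 each), with a change of -0.05 ± 0.09, which was 0.01 as deposited. INSIG2 was at 0.12 ± 0.14 and the escort gene SCAP at -0.12 ± 0.13. The genes of the SREBP-cleaving proteases, MBTPS1 and MBTPS2, were at -0.02 ± 0.08 and 0.04 ± 0.08, and that of MBTPS1 was 0.04 as deposited. The groups overlapped for all 5.

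Of 16 tested genes in the list of cholesterol uptake, transport and storage, 8 rose and 0 fell, with a median log2 change of 0.39. Among the 8 were MMAB and LPIN1, genes of a cobalamin enzyme and a phosphatidate phosphatase rather than of cholesterol transport. The number that rose was 2 as deposited, 5 in the fit of the 6 compared libraries, and 5 without DMSO replicate 2, DMSO replicate 3 or treated replicate 3. STARD4, a carrier of cholesterol between membranes, measured 9.21, 9.57 and 14.2 FPKM in treated libraries, against 3.57, 3.01 and 2.66 FPKM in DMSO libraries. The lowest treated library was above the highest DMSO library, and STARD4 rose by 1.47 ± 0.15 (adjusted p = 3.92e-05). TMEM97, which binds the lysosomal cholesterol exporter NPC1, rose by 0.48 ± 0.06, and MMAB, a cobalamin enzyme gene that shares its promoter with MVK, by 0.77 ± 0.09. NPC1 itself rose by 0.40 ± 0.08 and LIPA, the lysosomal acid lipase, by 0.38 ± 0.07. NPC1 (adjusted p = 0.0470) and LIPA (adjusted p = 0.0197) each passed in 1 of 6 reduced fits.

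Others of this list did not pass the threshold. LRP8, a lipoprotein receptor gene, measured 4.83, 4.70 and 5.57 FPKM in treated cells, against 2.81, 3.35 and 2.80 FPKM in DMSO cells, with a change of 0.53 ± 0.12 that did not pass (adjusted p = 0.104). The groups did not overlap. SCARB1, the high-density lipoprotein receptor gene, was at 0.13 ± 0.11 and SOAT1, which esterifies cholesterol, at 0.14 ± 0.08.

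LXR receptors respond to oxysterols and raise genes of cholesterol efflux. Of 6 tested members of the LXR list, 0 passed in limma (2 had an unadjusted p below 0.05), and the median log2 change was -0.09. MYLIP, an LXR target whose product degrades lipoprotein receptors, averaged 5.57 ± 1.53 FPKM in treated and 7.03 ± 0.741 FPKM in DMSO cells (SD, n = 3 each). Its change of -0.38 ± 0.13 did not pass (adjusted p = 0.536). LPCAT3, an LXR target that remodels phospholipids, was at -0.37 ± 0.09 (adjusted p = 0.194). After the median shift the treated libraries of both genes lay below the DMSO libraries, as did 6.99% of the genes tested, and as deposited the groups overlapped.

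Of 14 tested members of fatty acid synthesis, 3 rose and 0 fell, with a median log2 change of 0.27. As deposited none of the 3 passed in limma (adjusted p = 1.00 for SCD, 0.287 for ELOVL6 and 0.412 for ACSS2), and the median was 0.34. SCD, the stearoyl-CoA desaturase, measured 300.1, 286 and 449 FPKM in treated libraries, against 203.8, 155 and 157 FPKM in DMSO libraries. The groups did not overlap, and SCD rose by 0.92 ± 0.08 (SE, adjusted p = 3.96e-06). ELOVL6, an elongase of long-chain fatty acids, measured 34.0, 34.0 and 45.6 FPKM in treated cells, against 20.1, 17.1 and 17.4 FPKM in DMSO cells, and rose by 0.94 ± 0.06 (adjusted p = 1.04e-07). ACSS2, which makes acetyl-CoA from acetate, measured 14.1, 12.2 and 16.8 FPKM in treated cells, against 8.10, 6.54 and 5.31 FPKM in DMSO cells, and rose by 0.95 ± 0.08.

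The core enzymes of the same pathway did not pass. FASN, the fatty acid synthase, averaged 32.1 ± 7.74 FPKM in treated and 20.7 ± 5.24 FPKM in DMSO cells (SD, n = 3 each), with a change of 0.55 ± 0.13 (adjusted p = 0.138). ACLY, the ATP citrate lyase, was at 0.34 ± 0.11, the elongase gene ELOVL5 at 0.34 ± 0.10 and ACACA, the acetyl-CoA carboxylase, at 0.21 ± 0.08. SLC25A1, the mitochondrial citrate carrier, was at 0.39 ± 0.16. All 5 had treated libraries above the DMSO libraries after the median shift, as did 6.11% of the genes tested, and all but ELOVL5 overlapped as deposited.

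Of 10 tested acyl-CoA synthetase, lipin and glycerolipid genes, 3 rose and 0 fell, with a median log2 change of 0.08. As deposited 0 rose in limma. The median was 0.04 without treated replicate 2, 0.05 without treated replicate 1, 0.17 without treated replicate 3 and 0.36 among genes of 5 FPKM or more. ACSL4, an acyl-CoA synthetase that prefers arachidonic acid, measured 21.4, 22.5 and 29.7 FPKM in treated cells, against 13.4, 12.9 and 12.1 FPKM in DMSO cells. The groups were clearly apart, and ACSL4 rose by 0.82 ± 0.10 (adjusted p = 2.44e-04). ACSL3, which activates fatty acids at lipid droplets, rose by 0.42 ± 0.06. LPIN1, a phosphatidate phosphatase gene that is also in the transport list, rose by 0.49 ± 0.07. ACSL1 was at 0.34 ± 0.09 (adjusted p = 0.270).

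Sterol and fatty acid synthesis draw on NADPH. Of 9 tested genes of cytosolic NADPH supply, IDH1 alone passed, and as deposited it did not (adjusted p = 1.00 in limma). IDH1, the cytosolic isocitrate dehydrogenase, measured 70.9, 67.6 and 102 FPKM in treated cells, against 52.5, 44.1 and 42.0 FPKM in DMSO cells, and rose by 0.70 ± 0.05 (adjusted p = 3.35e-07). Its groups did not overlap. ME1, the malic enzyme, was at 0.27 ± 0.08 and PGD, an enzyme of the pentose phosphate pathway, at 0.17 ± 0.12, and neither passed.

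Of 18 tested glycolysis genes, 1 rose and 0 fell, with a median log2 change of -0.17, which was -0.08 without DMSO replicate 1. The member that rose, which did not pass as deposited (adjusted p = 0.176), was ALDOC, an aldolase isoform, with 7.94, 7.22 and 11.8 FPKM in treated cells, against 3.82, 4.02 and 3.93 FPKM in DMSO cells. The DMSO values lay within a narrow range below all treated values, and the change was 0.93 ± 0.13 (adjusted p = 1.08e-03). GAPDH averaged 4274 ± 1287 FPKM in treated and 5024 ± 1441 FPKM in DMSO cells (SD, n = 3 each), and the groups overlapped.

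Among the 13 higher genes outside the lists were RDH11, OLMALINC, PANK3, PAX8-AS1, HSD17B12, BHLHE40, CYB5B, MICA, FGFBP1, TDRKH, POLM and FAM104B. Several act on lipids or their cofactors. RDH11, a retinol dehydrogenase, measured 47.2, 46.7 and 64.6 FPKM in treated libraries, against 38.9, 31.1 and 32.3 FPKM in DMSO libraries. It rose by 0.54 ± 0.05 (SE, adjusted p = 1.63e-05). PANK3, a kinase of the first step from pantothenate to coenzyme A, rose by 0.43 ± 0.06 and HSD17B12, a reductase of fatty acid elongation, by 0.41 ± 0.07. CYB5B, the cytochrome b5 of the outer mitochondrial membrane, rose by 0.37 ± 0.06.

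The largest change of the 13 was that of FGFBP1, which encodes a secreted carrier of fibroblast growth factors. FGFBP1 measured 314, 287 and 434 FPKM in treated cells, against 195, 146 and 153 FPKM in DMSO cells, and rose by 0.99 ± 0.18 (adjusted p = 0.0137). Its groups did not overlap, yet it passed in 2 of 6 reduced fits. OLMALINC, a long non-coding RNA, measured 8.496, 11.1 and 15.5 FPKM in treated cells, against 6.41, 5.58 and 5.08 FPKM in DMSO cells, and rose by 0.83 ± 0.11. BHLHE40, a transcriptional repressor, rose by 0.67 ± 0.11.

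Another 5 had log2 changes of 0.32 to 0.56. MICA, a ligand of the natural killer cell receptor NKG2D, rose by 0.56 ± 0.10, and its reads may not be separable from those of its close relative MICB. PAX8-AS1 rose by 0.55 ± 0.08, but it is antisense to PAX8, and without knowledge of stranded counting the reads of the pair cannot be told apart. POLM, a DNA polymerase of end joining, rose by 0.47 ± 0.09, TDRKH, a factor of the piRNA pathway, by 0.40 ± 0.07 and FAM104B by 0.32 ± 0.06. MICA passed in 2 of 6 reduced fits, and TDRKH, POLM and FAM104B in 1.

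Only 3 genes fell. FAM25A, whose family members are near-identical in sequence so that reads may not be separable, measured 0.505, 0.0955 and 2.08 FPKM in treated libraries, against 7.94, 4.63 and 6.68 FPKM in DMSO libraries. The treated values varied widely among themselves, and each lay below all DMSO values. That of treated replicate 2 was near the lowest value of its library, 0.0947 FPKM, so the size of the change rests partly on a value near the floor. The change was -2.15 ± 0.29 (SE, adjusted p = 7.41e-04), and FAM25A passed in all 6 reduced fits and with the values as deposited.

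GPR75-ASB3, a read-through transcript that overlaps ASB3 and cannot be told apart from it, measured 1.23, 1.51 and 2.28 FPKM in treated cells, against 3.72, 3.25 and 3.78 FPKM in DMSO cells. It fell by 0.86 on the log2 scale (adjusted p = 0.0227) and passed in 0 of 6 reduced fits. RNASET2, a lysosomal ribonuclease gene, measured 8.001, 7.498 and 10.9 FPKM in treated cells, against 13.1, 9.27 and 10.3 FPKM in DMSO cells. These values overlapped as deposited, and it fell by 0.35 after the median shift (adjusted p = 0.0401), passing in 1 of 6 reduced fits. The number of lower genes was 1 without treated replicate 2, 1 without treated replicate 3, 5 without treated replicate 1 and 6 without DMSO replicate 2.

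The next 5 lower genes by p did not pass. They were DHRS7 at -0.25 ± 0.05 (adjusted p = 0.0672), LAGE3 at -0.57 ± 0.13, KBTBD4 at -0.34 ± 0.08, PKN3 at -0.42 ± 0.10 and NXN at -0.45 ± 0.11 (adjusted p = 0.157). DHRS7 encodes a short-chain dehydrogenase, KBTBD4 an adaptor of cullin ubiquitin ligases, PKN3 a protein kinase and NXN a thioredoxin-like protein.

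LIPG and HYAL1 are a pair of low genes whose calls differ between the scalings, chosen after their values were seen. LIPG, the endothelial lipase, measured 3.22, 2.82 and 2.74 FPKM in treated cells, against 1.24, 0.984 and 1.01 FPKM in DMSO cells, with a change of 0.86 ± 0.23 that did not pass (adjusted p = 0.247). HYAL1, a lysosomal hyaluronidase, measured 6.50, 5.66 and 7.44 FPKM in treated cells, against 3.53, 2.86 and 3.06 FPKM in DMSO cells, with a change of 0.80 ± 0.18 (adjusted p = 0.104). The groups of both were apart. As deposited both passed, with an adjusted p = 2.75e-03 for LIPG and an adjusted p = 0.0232 for HYAL1. Of the 19 tested genes of the lysosome list, NPC1 rose and RNASET2 fell, and the median was -0.08.

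Other kinase genes listed beside DCLK1, and genes of ERK signalling and the immediate early response, gave no calls. MAPK7, which encodes ERK5, was at 0.04 ± 0.09 and TNK2 at -0.15 ± 0.11, with overlapping groups. Of 13 feedback genes of ERK signalling 0 passed, with a median log2 change of 0.03, among them the phosphatase gene DUSP6 at 0.09 ± 0.09 and the transcription factor gene ETV4 at -0.14 ± 0.10. Of 11 AP-1 and immediate early genes 0 passed, with a median of 0.03. EGR1 was at 0.49 ± 0.15 (adjusted p = 0.379) with its treated libraries above its DMSO libraries, and JUND at 0.33 ± 0.09 (adjusted p = 0.271). Of 6 ERK5 output genes 0 passed. Without adjustment, 2 immediate early genes and 0 of the ERK feedback and ERK5 output genes had a p below 0.05 in limma.

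Other programmes had no member past the threshold either. These were the lists of epithelial junction genes (0 of 9, median log2 change -0.03), mesenchymal genes (0 of 6, -0.05), actin cytoskeleton genes (0 of 15, -0.11) and tubulins (0 of 10, -0.28). The stress lists were those of ATF4 targets (0 of 13, -0.08), the unfolded protein response (0 of 11, -0.03), p53 targets (0 of 10, 0.08), NRF2 targets (0 of 7, -0.04) and metallothioneins (0 of 5, -0.09). Interferon-stimulated genes gave 0 of 9 with a median of 0.07. DNA replication genes of G1/S gave 0 of 17 with a median of -0.14, and G2/M genes 0 of 16 with a median of -0.11. Of 16 tuft cell and stem cell markers, a field in which DCLK1 is itself a marker, 4 were tested and 0 passed. Their median log2 change was 0.07, with a range of -0.13 to 0.85. After the median shift, 1 of these 4 had its treated libraries above its DMSO libraries, as did 6.11% of the genes tested. At an unadjusted p below 0.05 in limma, which 7.72% of all genes tested reached, stood 3 tubulins, 2 ATF4 targets, 1 p53 target, 1 NRF2 target, 4 G1/S genes, 2 G2/M genes and 2 tuft or stem cell markers. No gene of the epithelial, mesenchymal, actin, unfolded protein, metallothionein or interferon lists did.

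Ribosomal protein and respiratory chain genes lay slightly lower. All 23 ribosomal protein genes were below 0 with a median log2 change of -0.22, and all 19 respiratory chain genes were below 0 with a median of -0.19, while 43.8% of all genes tested were above 0. None of these 42 genes passed in limma, and 3 respiratory chain genes and 0 ribosomal protein genes had an unadjusted p below 0.05. Without DMSO replicate 1 the ribosomal median was -0.13 and the respiratory median -0.09. With DMSO replicate 2 left out instead they were -0.34 and -0.27. As deposited 22 ribosomal and 19 respiratory genes were below 0, with medians of -0.16 and -0.13. The part of these libraries in the result was not tested further. In PATU-8988T the same medians at 24 h were -0.36 for ribosomal protein and -0.24 for respiratory chain genes.

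The 6 h libraries of PATU-8902 place these values in time. They share the DMSO libraries with the 24 h comparison, and the effects of time and of inhibitor cannot be told apart since DMSO was taken at 24 h. Against DMSO, 13 genes passed at 6 h (0.113%), of which 12 were higher (0.105%). INSIG1 measured 11.7, 10.2 and 10.9 FPKM in DMSO, 30.5, 49.3 and 34.2 FPKM at 6 h and 28.1, 28.3 and 45.6 FPKM at 24 h. The 6 h and 24 h values overlapped, and the log2 change of INSIG1 at 24 h against 6 h was -0.27 ± 0.09 (SE, adjusted p = 0.531).

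HMGCS1 measured 32.5, 27.3 and 27.2 FPKM in DMSO, 57.9, 87.7 and 61.9 FPKM at 6 h and 90.2, 89.5 and 123 FPKM at 24 h. All 6 h libraries lay between the DMSO and the 24 h libraries, with a change of 0.44 ± 0.07 at 24 h against 6 h (adjusted p = 6.47e-03). C14orf1 measured 30.8, 26.8 and 23.8 FPKM in DMSO, 22.4, 35.1 and 27.2 FPKM at 6 h and 57.5, 54.5 and 70.0 FPKM at 24 h. Its 6 h libraries overlapped with DMSO and lay below all 24 h libraries. ELOVL6 at 6 h, with 17.5, 24.9 and 17.8 FPKM, also overlapped with DMSO, and its change was 0.17 ± 0.06 at 6 h against DMSO (adjusted p = 1.00) and 0.78 ± 0.06 at 24 h against 6 h.

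Between 6 h and 24 h of inhibitor, 28 genes passed (0.244%), of which 24 were higher at 24 h (0.209%). This comparison shares the 24 h libraries with that against DMSO. Of the mevalonate genes 4 passed, of the squalene to lanosterol enzymes 4 and of the late sterol genes 4. LPIN1, at 0.50 ± 0.07 at 6 h against DMSO and -0.01 ± 0.07 at 24 h against 6 h, and NPC1, at 0.36 ± 0.08 and 0.04 ± 0.08, gave no call between the times. As deposited, 0 genes passed between 6 h and 24 h in limma, with 197 at an unadjusted p below 0.05.

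**Figure D4:**
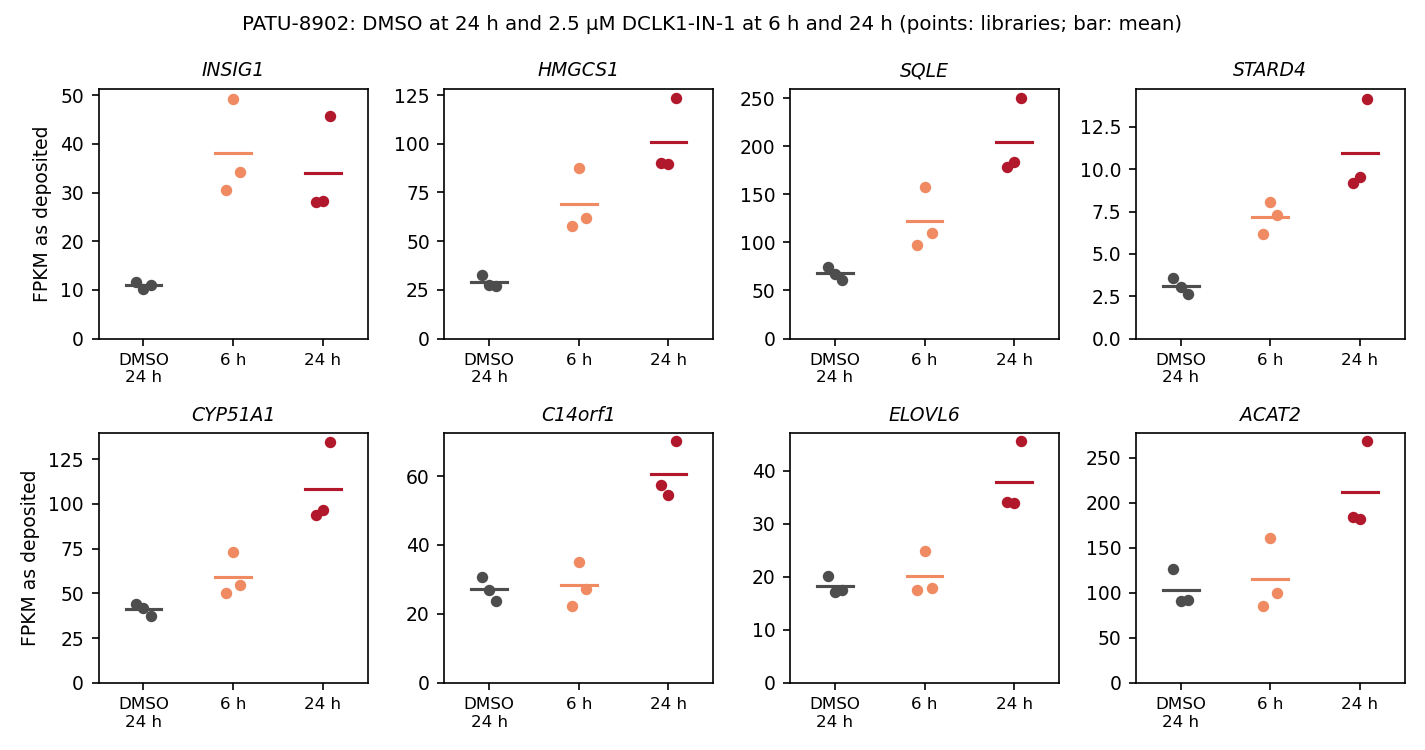
FPKM as deposited of 8 genes in PATU-8902 cells in DMSO at 24 h (grey) and in 2.5 µM DCLK1-IN-1 at 6 h (orange) and 24 h (red), with a point for each of 3 libraries and a bar at the mean. INSIG1 is as high at 6 h (30.5 to 49.3) as at 24 h (28.1 to 45.6), while C14orf1, ELOVL6 and ACAT2 overlap with DMSO at 6 h.

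In PATU-8988T the same 24 h comparison gave 0 of 11477 genes past the threshold in limma (0.0%), with 1923 at an unadjusted p below 0.05 (16.8%). After the median shift, the 48 genes that rose in PATU-8902 had a median log2 change of 0.10 in PATU-8988T, and 32 of them were above 0 there. HMGCS1 averaged 16.2 ± 2.56 FPKM in treated and 15.6 ± 4.16 FPKM in DMSO cells of PATU-8988T (SD, n = 3 each), a log2 change of 0.42 ± 0.07 after the median shift. SQLE averaged 55.6 ± 7.56 FPKM in treated and 65.9 ± 21.8 FPKM in DMSO cells of that line, a change of 0.16 ± 0.05 after the shift. The deposited means and the shifted change of SQLE differ in direction. In PATU-8988T the log2 shift was 0.67, 0.59 and 0.36 in treated replicates 1 to 3. In its DMSO replicates 1 to 3 it was 0.70, -0.17 and 0.04. The shift thus raised all changes given for this line, the median of 0.10 and the count of 32 among them. That median and count were not taken on the deposited values. Library medians in PATU-8988T ran from 6.30 to 8.01 FPKM in treated cells and from 6.12 to 12.1 FPKM in DMSO cells.

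The difference of the 24 h changes, PATU-8902 minus PATU-8988T, was tested as an interaction, and 26 genes passed (0.227%), of which 25 were positive (0.218%). Of the 48 higher genes, 24 were among them, and all 48 had the larger change in PATU-8902. The same PATU-8902 libraries chose these genes, so the counts describe them and add no support. The largest positive differences among named genes were HSD17B7 at 1.47 ± 0.16 (SE, adjusted p = 2.60e-04), DHCR7 at 1.38 ± 0.19, SQLE at 1.35 ± 0.07 and HMGCS1 at 1.27 ± 0.10. MSMO1 at 1.02 ± 0.21 (adjusted p = 0.0808) and STARD4 at 1.05 ± 0.22 (adjusted p = 0.0804) did not pass. As deposited, 1 gene passed the interaction.

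FAM25A gave the 1 negative value past the threshold (0.00871%), -2.56 ± 0.41 (adjusted p = 8.45e-03). In PATU-8988T it averaged 0.141 ± 0.120 FPKM in treated and 0.0873 ± 0.0134 FPKM in DMSO cells (SD, n = 3 each), at or near the lowest value of a library in both groups. Of the -2.56, a part of 0.41 in size comes from these values near the floor after the median shift. The -2.56 is therefore no measured difference between the lines, and the change in PATU-8902 alone was -2.15.

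**Figure D5:**
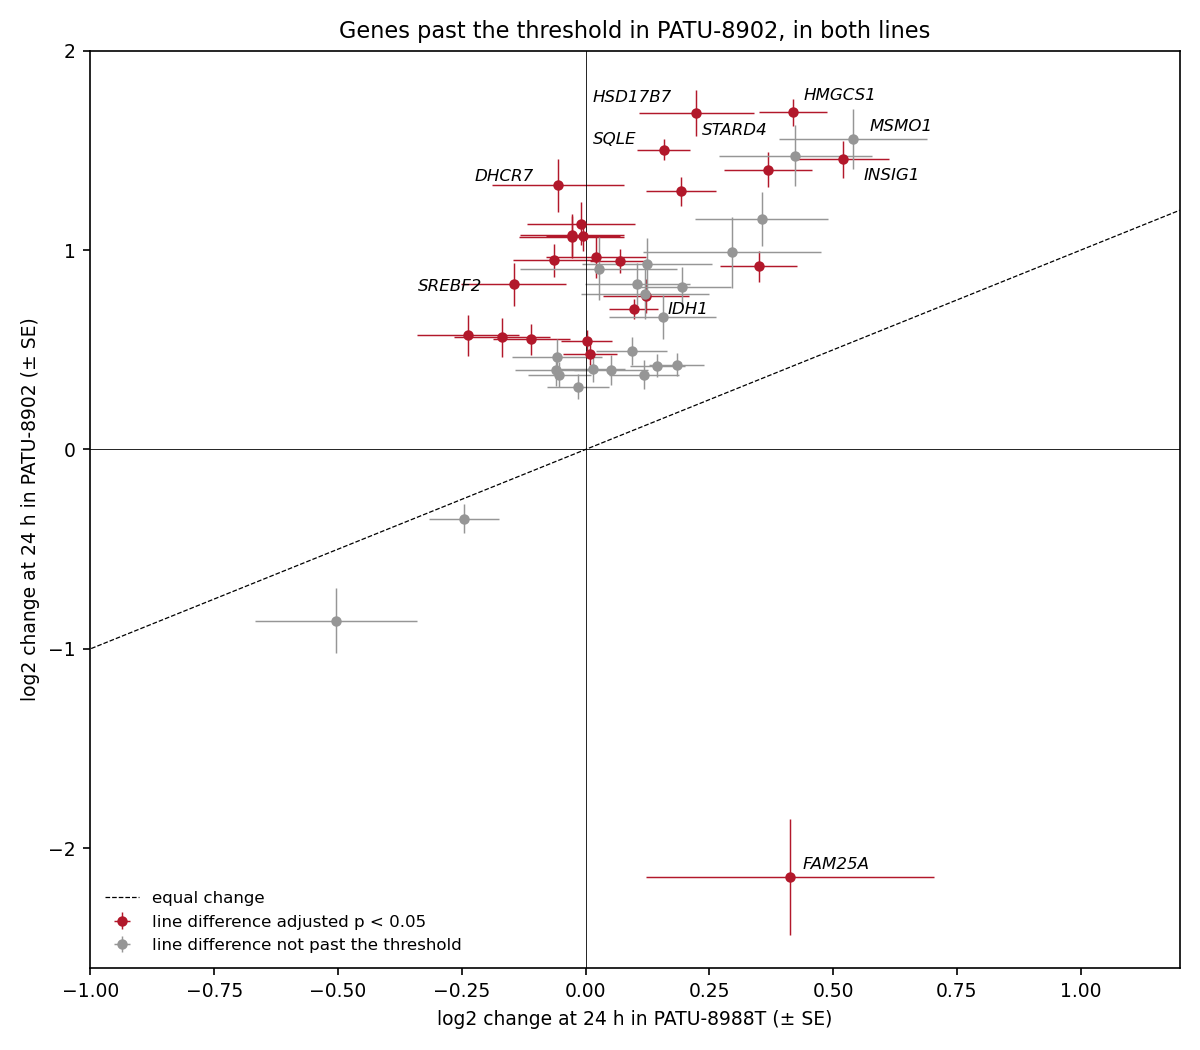
Log2 change at 24 h in PATU-8988T (horizontal axis) and in PATU-8902 (vertical axis), with SE bars, of 46 of the 51 genes past the threshold in PATU-8902. The points that rose in PATU-8902 all lie above the dashed line of equal change, and red points, such as HSD17B7 and DHCR7, passed the test of the difference between the lines.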

How the data were processed

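Libraries were prepared with a poly(A) kit after ERCC spike-in RNA was added to cell-count-normalised RNA, and sequenced as single-end reads, per the labels' protocols. The authors deposited 1 table of FPKM values, made with HISAT, Cufflinks and Cuffnorm on hg19, per the submitters' processing notes, which were seen without versions. The deposited FPKM hold no counts, so library depth and counting error are unknown. In the deposited FPKM the spike-in controls were level between the 18 libraries, with mean log2 deviations of -0.06 to 0.05. The sums over genes ran from 263339 to 764363 FPKM. If the deposited values were scaled to the spike-ins, that scaling made them level, so their level is no separate check of the libraries. The median shift, which replaces the deposited scaling, removes any overall change in RNA per cell.

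From the table, 92 spike-in rows were removed and genes averaging 1 FPKM or more over the 18 libraries were kept. Values were taken as log2(FPKM + 1) and shifted to a common library median. One fit with a mean-variance trend in limma (version 3.58.1, under R 4.3.3) to 6 group means over 18 libraries, with 12 residual degrees of freedom, gave all changes, SE and p-values, with no replicate block. SD are of deposited FPKM. The fit was tested on simulated data. Columns were matched to samples by title.

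The comparison, its gene lists and the tests were chosen with earlier results of these data known. Genes were named where they passed the threshold (up to 25 in each direction with values, where the groups did not overlap), as the 5 lower genes with the smallest p where fewer than 5 passed, or as list members. Rows of small RNAs were left unranked. Some genes are not reported here although the rule names them, and they stay in the counts. Promoter letters come from RefSeq (GRCh38.p14), matched by symbol, and no coordinate was converted from hg19.

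The alternatives tried were deposited scaling, no filter, a filter of 5 FPKM, a pseudocount of 0.1, fits on the 9 or 6 libraries, the replicate block and leaving out each library.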

Additional observations from a re-analysis of the deposited data

Results flagged for a closer look

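These genes changed differently in the 2 lines at 24 h by the interaction test of limma (PATU-8902 minus PATU-8988T, log2, adjusted p below 0.05 over all genes tested). In cholesterol synthesis the differences were 1.27 for HMGCS1, 1.09 for MVK, 1.04 for IDI1, 0.94 for ACAT2, 1.14 for FDFT1, 1.35 for SQLE, 1.10 for LSS and 1.10 for CYP51A1. The later enzymes gave 0.81 for NSDHL, 1.47 for HSD17B7, 1.07 for C14orf1 and 1.38 for DHCR7. Among members of the SREBP control and transport lists the differences were 0.94 for INSIG1, 0.97 for SREBF2, 0.47 for TMEM97 and 0.65 for MMAB. Fatty acid and NADPH genes gave 0.57 for SCD, 0.88 for ELOVL6, 1.01 for ACSS2 and 0.61 for IDH1. Outside the lists they were 0.54 for RDH11, 0.66 for PAX8-AS1 and 0.73 for MICA. FAM25A gave -2.56, but it was near the lowest library values in PATU-8988T, so this is no measured difference between the lines, and its change in PATU-8902 alone was -2.15. As deposited, 1 gene passed this test.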

How the results depend on the processing

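The number of genes past the threshold was 51, and 13 as deposited, 56 with a pseudocount of 0.1, 46 without a filter, 54 at 5 FPKM or more, 44 in the fit of 9 libraries and 42 in that of 6. It ran from 40 to 46 when 1 library was left out. The higher genes numbered 48, and 12 as deposited. The lower genes numbered 3, 1 as deposited, 5 with a pseudocount of 0.1, and from 1 to 6 when 1 library was left out. The line difference called 26 genes, and 1 as deposited. The comparison of 24 h with 6 h called 28 genes, and 0 as deposited. The median log2 change of the 23 sterol synthesis enzymes was 1.07, and 1.13 as deposited. HMGCS1 stood at 1.69 ± 0.07 (SE), and at 1.75 ± 0.24 as deposited. SREBF2 stood at 0.83 ± 0.11, and at 0.89 ± 0.31 as deposited. The cause of the differing counts was not tested.

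The labels give replicate numbers but do not say that a number marks a shared batch. Deviations of same-numbered treated and DMSO libraries correlated at -0.085, 0.091 and -0.048, and those of other pairs at -0.115 to 0.156. With only 3 libraries a group, these correlations cannot decide whether the samples were paired. With the replicate number as a block, 42 genes passed at 24 h against DMSO, all among the 51, and 17 at 24 h against 6 h. The library medians differed by 0.06, and by -0.0846 to 0.146 when 1 library was left out. Over the 46 called genes of the text and these settings, 471 of 594 values stayed past the threshold, 123 did not and 0 changed direction. For the lists of 5 or more genes with 0 calls, medians stayed between -0.34 and 0.15 when 1 library was left out, and those of the ERK feedback, immediate early, ERK5 output, epithelial junction, mesenchymal, metallothionein, interferon and pancreatic epithelium lists changed sign. Some uncalled genes near 0 did change direction. As deposited these were LBR at 0.0398, SREBF1 at 0.00847, MBTPS1 at 0.0393 and DCLK1 at 0.0624, and DCLK1 was at 0.0191 at 5 FPKM or more. When 1 library was left out, LBR ran from -0.0812 to 0.0317, MBTPS1 from -0.0573 to 0.0159, DCLK1 from -0.0407 to 0.0535 and MAPK7 from -0.0387 to 0.0817. With FPKM and no counts, precision is limited to the spread between 3 libraries a group.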
